A study of Sus scrofa with 9 samples.

Results

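The chromosome 6 locus described here is a run of 9 neighbouring pig genes that carry only locus identifiers, between 72732006 and 72892480 of Sscrofa11.1. The 9 genes were taken from the 27339 genes of the count table by their identifiers. They had been selected on their counts in these same libraries, where they stood out as high with human DUX4 and pig DUXC and close to 0 with GFP. Their levels and ratios in the 3 groups are therefore given as a description, without a test. No source used here names these genes or what they encode.

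DUX genes encode transcription factors with a pair of homeodomains. In placental mammals they are active in the early embryo, where they switch on genes of the first wave of embryonic transcription, many of which lie in clusters of related copies. Human DUX4 is silent in healthy skeletal muscle, and its misexpression there underlies facioscapulohumeral muscular dystrophy. DUXC is the corresponding double homeobox gene that the pig has kept.

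Messenger RNA was sequenced from primary Gottingen pig myoblasts, the dividing precursors of skeletal muscle fibres, at passages 7 to 9. In 3 libraries the cells carried human DUX4 under doxycycline control, in 3 they carried pig DUXC and in 3 they carried GFP, and all 9 libraries came from cells kept for 16 h in 1 µg/mL doxycycline. Whether replicate libraries stem from separate cultures is not stated, and the spread between them may be technical.

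Total counts were 39842081 to 44420895 in the DUX4 libraries, 36580573 to 38971217 in the DUXC libraries and 39979602 to 42362395 in the GFP libraries. The labelled cell type was checked against marker genes, as summed normalised read counts in CPM, counts per 1000000 counts of the library. The 8 myoblast and muscle markers summed to 4.89 to 5.82 CPM in DUX4 libraries, 6.76 to 7.18 CPM in DUXC libraries and 8.47 to 8.85 CPM in GFP libraries. DES, which encodes the intermediate filament desmin, averaged 2.10 CPM with DUX4, 1.07 CPM with DUXC and 7.15 CPM with GFP, where it made up most of the sum. MYF5, PAX7, MYOD1, MYOG, MYF6, CDH15 and CHRNA1 had higher means with both DUX4 and DUXC than with GFP. Among them the myogenic factor gene MYF5 had 2.16 CPM with DUX4, 1.78 CPM with DUXC and 0.705 CPM with GFP. With DUX4 the differences were slight for CDH15 (22 counts against 21 with GFP) and CHRNA1 (16 against 15). CHRNA1, an acetylcholine receptor subunit gene, averaged 0.131 CPM with DUX4, 2.26 CPM with DUXC and 0.126 CPM with GFP, and the myogenic factor gene MYOD1 had 14 counts over all 9 libraries. The 6 fibroblast markers summed to 28719.9 to 32431 CPM in DUX4 libraries, 25358 to 25378 CPM in DUXC libraries and 49467 to 52572 CPM in GFP libraries, where the collagen gene COL1A2 was the most abundant at 19246 CPM. The collagen genes COL1A1, COL1A2 and COL3A1 made up most of these sums, whereas the growth factor receptor gene PDGFRA averaged 163 CPM with DUX4, 926 CPM with DUXC and 373 CPM with GFP. Transcripts of fibroblast markers were thus far more abundant in every group than those of the markers of the labelled cell type. The 3 endothelial markers summed to 9.71 to 10.4 CPM in DUX4 libraries, 24.2 to 26.5 CPM in DUXC libraries and 5.62 to 6.70 CPM in GFP libraries. The 3 immune markers summed to 2.19 to 2.56 CPM in DUX4 libraries, 2.66 to 2.89 CPM in DUXC libraries and 3.06 to 4.13 CPM in GFP libraries. Of these, CSF1R averaged 0.644 CPM with DUX4, 0.396 CPM with DUXC and 2.67 CPM with GFP, CD68 averaged 1.70 CPM with DUX4, 2.24 CPM with DUXC and 0.9503 CPM with GFP, and the defining PTPRC had counts in DUXC libraries alone, 16 in all. The 3 adipocyte markers summed to 1.49 to 1.62 CPM in DUX4 libraries and 8.65 to 9.30 CPM in DUXC libraries and had no count with GFP. FABP4 made up nearly all of that sum, while ADIPOQ and PLIN1 had 6 and 3 counts, all with DUXC. The part of these marker differences in the levels of the locus was not tested.

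In the RefSeq annotation of Sscrofa11.1 the 9 genes are all protein-coding, each with 1 transcript, and lie within 160475 bp of chromosome 6. In order they are LOC100737881 (72732006 to 72734637), LOC100737926 (72747172 to 72750144), LOC100737973 (72754749 to 72763513), LOC100516915 (72765442 to 72768567), LOC100517659 (72782924 to 72785779), LOC100624852 (72835325 to 72838185), LOC100517830 (72851834 to 72854956), LOC100517101 (72872737 to 72875922) and LOC100625127 (72889356 to 72892480). They are alike in size, with spans of 2632 to 3186 bp, except LOC100737973 with 8765 bp. Adjacent genes are 1928 to 17780 bp apart, except for a gap of 49545 bp between LOC100517659 and LOC100624852. That gap holds the pseudogenes LOC100517287 (72794479 to 72797662) and LOC110261389 (72807286 to 72809337). Neither is in the count table, so they could not be analysed. The sources used here do not state how reads that fit more than 1 gene were counted, so if these genes share sequence the split of counts between them is uncertain, and reads left uncounted would lower their sum too.

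Together the 9 genes made up a sizeable part of the messenger RNA of cells with DUXC. They held 3.30 ± 0.0828% of all counts with DUXC and 0.400 ± 0.0254% with DUX4 (SD, n = 3 each). In the GFP libraries they had 114 counts in all, which is 9.08e-05 ± 0.000103% of the counts (SD, n = 3). Their summed level was 3765, 4178 and 4284 CPM in the DUX4 libraries, 30715, 32404 and 30877 CPM in the DUXC libraries and 2.15, 0.513 and 0.154 CPM in the GFP libraries. Every DUXC library thus lay above every DUX4 library, and every DUX4 library above every GFP library. The mean sum was 4335 times higher with DUX4 than with GFP (log2 12.08) and 33327 times higher with DUXC than with GFP (log2 15.02). Both comparisons use the same 3 GFP libraries. In these bulk samples, more cells that transcribe the locus and more RNA per cell cannot be told apart.

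The ratios to GFP rest on the 114 control counts, and GFP replicate 1 held 88 of them, against 20 in replicate 2 and 6 in replicate 3. Without GFP replicate 1 the sum was 12209 times higher with DUX4 and 93282 times higher with DUXC than with GFP. The order of size of these ratios is therefore set by a few counts, and the difference between DUX4 and DUXC does not depend on them.

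All 9 genes passed the filter on low counts, which they could do only through the DUX4 and DUXC libraries. All 9 were called higher with DUX4 than with GFP at an adjusted p under 0.05 in edgeR's quasi-likelihood fit, where 32.9% of the 15956 tested genes were called higher. All 9 were called higher with DUXC than with GFP, against 40.2% of the tested genes, and all 9 lower with DUX4 than with DUXC, against 41.6%. In all 9 genes every DUX4 library lay above every GFP library, as in 34% of the tested genes, and every DUXC library above every GFP library, as in 40.7%. These counts follow from the way the genes were picked and are no evidence about them. The median fitted log2 fold change over the 9 genes was 11.75 for DUX4 against GFP and 14.91 for DUXC against GFP, where the medians over all tested genes were 0.00 and -0.03.

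**Figure D1:**
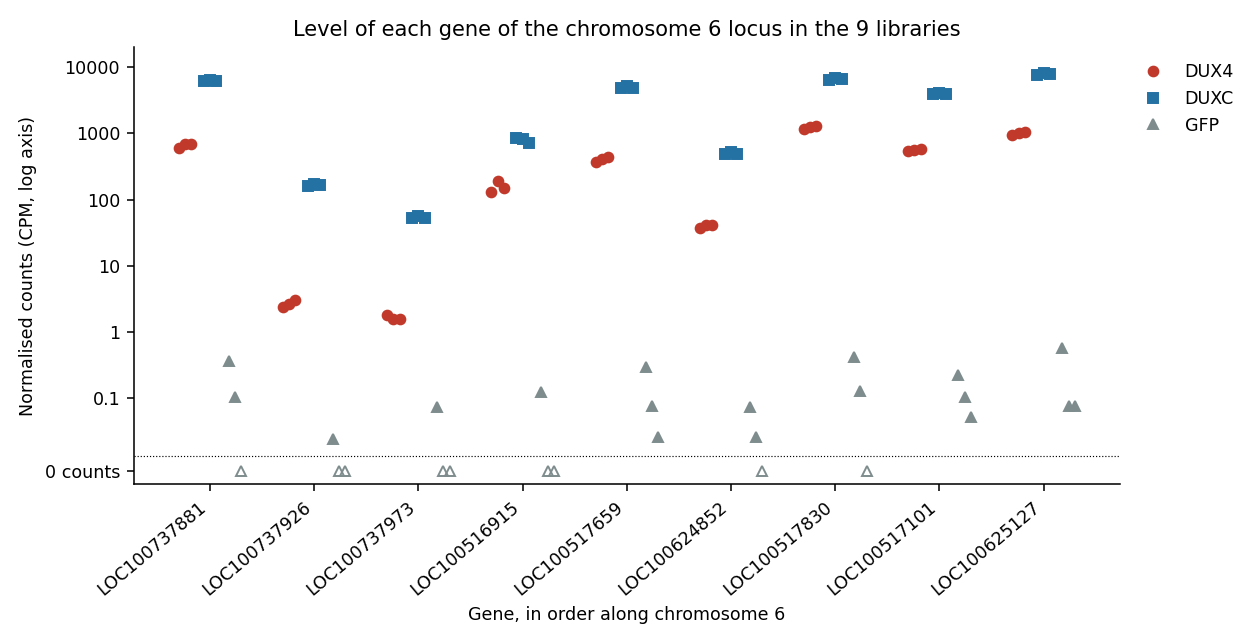
Level of each of the 9 genes (x axis, in order along chromosome 6) in normalised counts (CPM) on a log axis, with 1 point per library; open symbols below the dotted line are libraries without a count. Within each gene the 3 DUX4 points and the 3 DUXC points stand apart from each other and from the GFP points, which reach at most 0.563 CPM.

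With DUXC, 5 of the 9 genes were among the 50 most abundant of the 27339 genes and 3 among the 10 most abundant. LOC100625127, the last gene of the run, was the most abundant of the 9 with DUXC and ranked 5. It had 932, 1032 and 1062 CPM in the DUX4 libraries, 7741, 8066 and 7853 CPM in the DUXC libraries and 0.563, 0.0770 and 0.0770 CPM in the GFP libraries. LOC100517830 had 1160.5, 1243 and 1315 CPM with DUX4, 6459.9, 6906 and 6639 CPM with DUXC and 0.416 and 0.128 CPM in GFP replicates 1 and 2, with no count in replicate 3. It was the most abundant of the 9 with DUX4, at rank 84, and it ranked 7 with DUXC. LOC100737881, the first gene of the run, had 599, 697 and 704 CPM with DUX4, 6104, 6448 and 6099 CPM with DUXC and 0.367 and 0.103 CPM in GFP replicates 1 and 2, again with no count in replicate 3. It ranked 186 with DUX4 and 9 with DUXC.

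LOC100517659 and LOC100517101 completed the group of abundant genes. LOC100517659, next to the widest gap, had 364, 412 and 433 CPM with DUX4, 4925, 5288 and 4935 CPM with DUXC and 0.294, 0.0770 and 0.0257 CPM with GFP. LOC100517101 had 539, 558 and 575 CPM with DUX4, 3939.7, 4129 and 3906 CPM with DUXC and 0.220, 0.103 and 0.0513 CPM with GFP. They ranked 11 and 14 with DUXC. With DUX4 their order was the other way round, LOC100517659 at rank 379 and LOC100517101 at rank 246.

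The other 4 genes were less abundant in every group. LOC100516915 had 129, 190.1 and 148 CPM with DUX4, 843, 824 and 727 CPM with DUXC and 0.122 CPM in GFP replicate 1 with no count in the others. LOC100624852, on the far side of the widest gap, had 37.3, 41.9 and 41.6 CPM with DUX4, 491, 517 and 496 CPM with DUXC and 0.0734 and 0.0257 CPM in GFP replicates 1 and 2, with no count in replicate 3. These 2 genes were of intermediate level and ranked 139 and 228 with DUXC.

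LOC100737926 and LOC100737973, which lie side by side as the second and the third gene of the run, were the least abundant with both factors. LOC100737926 had 2.38, 2.64 and 3.05 CPM with DUX4, 158, 169.9 and 167 CPM with DUXC and 1 count with GFP, in replicate 1. LOC100737973 had 1.79, 1.58 and 1.56 CPM with DUX4, 52.7, 56.9 and 53.3 CPM with DUXC and 3 counts with GFP, all in replicate 1. With DUX4 both stayed at or below 3.05 CPM in every library, while their neighbours on either side, LOC100737881 and LOC100516915, averaged 667 and 156 CPM.

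The ratio of the mean level to that with GFP was computed for each gene, with at most 29 control counts behind it. The 7 genes with 4 or more control counts had ratios of 1219 to 6833 with DUX4 and of 15182 to 39709 with DUXC. LOC100737926 had ratios of 330.0 (58.8 to 13072) with DUX4 and 20262.5 (3636 to 800366) with DUXC, and LOC100737973 had ratios of 67.3 (22.7 to 329) with DUX4 and 2219 (759 to 10761) with DUXC, with 95% intervals that cover counting error only. Without GFP replicate 1, these genes and LOC100516915 had no control count left. Set against a floor of 3 counts over the remaining 2 GFP libraries, LOC100737926 was at least 69.9-fold higher with DUX4 and at least 4266-fold higher with DUXC. On the same basis LOC100737973 was at least 42.8-fold higher with DUX4 and at least 1401-fold higher with DUXC. LOC100516915 was at least 4048-fold higher with DUX4 and at least 20604-fold higher with DUXC. For the other 6 genes leaving out GFP replicate 1 raised the ratios, to between 3133 and 19304 with DUX4 and to between 38793 and 120260 with DUXC.

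Levels of different genes were compared as CPM per kilobase of annotated span, since exon lengths were not at hand. With DUX4 the order from high to low was LOC100517830, LOC100625127, LOC100737881, LOC100517101, LOC100517659, LOC100516915, LOC100624852, LOC100737926 and LOC100737973. With DUXC it began with LOC100625127, LOC100737881, LOC100517830, LOC100517659 and LOC100517101 and went on with the same last 4 genes. No adjacent genes in either order overlapped between libraries. On this scale the top gene with DUX4 had 397 ± 24.8 CPM per kilobase and the bottom one 0.188 ± 0.0146, a range of 2112 times. With DUXC the top gene had 2524 ± 52.8 CPM per kilobase and the bottom one 6.19 ± 0.259 (SD, n = 3), a range of 408 times. The longer span of LOC100737973 lowers its value on this scale, and in CPM alone the ranges were 753 times with DUX4 and 145 times with DUXC. With DUXC, LOC100517830 stood above LOC100737881 in CPM alone, at 6668 and 6217 CPM, so the order of these 2 genes depends on the scale.

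The comparison of DUX4 with DUXC asks how far the level of each gene differed between the human and the pig factor. The sum over the 9 genes averaged 4075.5 ± 274 CPM with DUX4 and 31332 ± 932 CPM with DUXC (SD, n = 3 each), 7.69 times lower with DUX4 (log2 -2.94). Every gene was lower with DUX4 in all 3 libraries than in any DUXC library, which was found for 42% of the tested genes. Levels of the transgenes were not analysed, so the factor and its dose cannot be told apart here. The 9 genes differed among themselves in this ratio by a factor of 12.0 from the smallest to the largest.

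LOC100516915 and LOC100517830 were closest between the factors, 5.12 and 5.38 times lower with DUX4 (log2 -2.36 and -2.43). LOC100517101 and LOC100625127, at the upper end of the run, were 7.17 and 7.82 times lower with DUX4, and LOC100737881 9.32 times. LOC100624852 and LOC100517659, which face each other across the widest gap, had nearly equal ratios, 12.5 times lower with DUX4 in both (log2 -3.64 and -3.65). LOC100737973 and LOC100737926 were furthest apart between the factors, 33.0 and 61.4 times lower with DUX4 (log2 -5.04 and -5.94). These are also the least abundant of the 9 genes with both factors. LOC100516915, which had one of the smallest differences, follows directly after them, 1928 bp further along the chromosome, so the ratio did not change steadily with position.

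**Figure D2:**
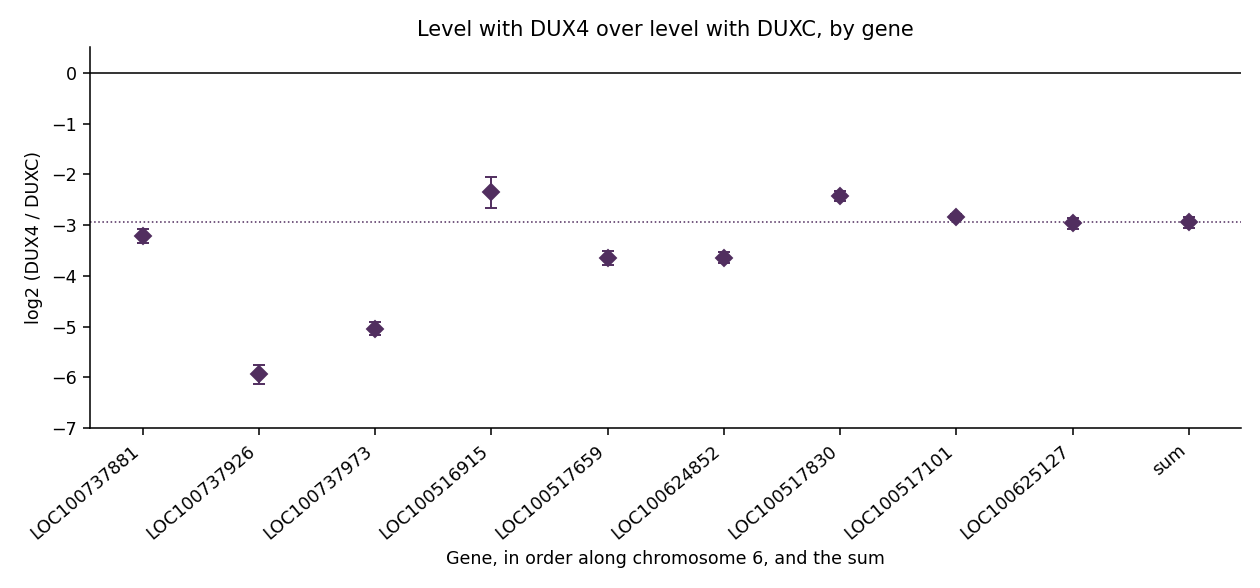
Level with DUX4 over level with DUXC as a log2 ratio of mean normalised counts, for each gene in order along chromosome 6 and for the sum; bars are 1 SD from the spread of the 3 libraries of both groups, and the dotted line marks the sum at -2.94. All values lie below 0, and LOC100737926 (-5.94) and LOC100737973 (-5.04) lie furthest down.

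As each gene's ratio differed, the make-up of the sum differed too, and this make-up was not what the genes were selected on, though the libraries are the same. LOC100517830 held 30.8, 29.8 and 30.7% of the summed counts in the DUX4 libraries, against 21.0, 21.3 and 21.5% in the DUXC libraries, a difference of 9.15 percentage points. LOC100517659 held 9.68, 9.85 and 10.1% with DUX4, against 16.0, 16.3 and 16.0% with DUXC. LOC100737881 held 15.9, 16.7 and 16.4% with DUX4, against 19.9, 19.9 and 19.8% with DUXC. The first of these took a larger part of the sum with DUX4 and the other 2 a smaller part.

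LOC100625127 contributed nearly the same part in both groups, 24.8, 24.7 and 24.8% with DUX4, against 25.2, 24.9 and 25.4% with DUXC. LOC100517101 averaged 13.7 ± 0.538% with DUX4 and 12.7 ± 0.0880% with DUXC, and LOC100516915 averaged 3.81 ± 0.638% with DUX4 and 2.55 ± 0.195% with DUXC. The smallest contributors were lower with DUX4, LOC100624852 at 0.988 ± 0.0163% against 1.60 ± 0.00669% with DUXC, LOC100737926 at 0.0659 ± 0.00460% against 0.527 ± 0.0137% and LOC100737973 at 0.0407 ± 0.00609% against 0.173 ± 0.00207% (SD, n = 3 each). For all 9 genes the shares in the DUX4 and DUXC libraries did not overlap. Shares are defined only within the sum, so this count has no counterpart over all tested genes. In level, every DUX4 library lay below every DUXC library in 42% of the tested genes, which leaves out the opposite direction. The absence of overlap in the shares was counted in both directions. Of 15956 tested genes, the fit called 6515 higher and 6635 lower with DUX4 than with DUXC, so a difference in either direction was common. A two-sided exact permutation test over the 3 libraries of each group gave p = 0.1 for each gene, also after Benjamini-Hochberg adjustment over the 9. This is the smallest value that 3 against 3 allow, so the test could not have reached the threshold used for the fit. The test adds nothing to the absence of overlap in the shares, and no conclusion is drawn from it. The shares add up to the whole, so they are not independent of each other. Counting error of a share in a single library was at most 0.232 percentage points on either side (exact 95% binomial interval). For LOC100625127 the highest DUX4 and the lowest DUXC library, at 24.8 and 24.9%, lay closer than that counting error.

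**Figure D3:**
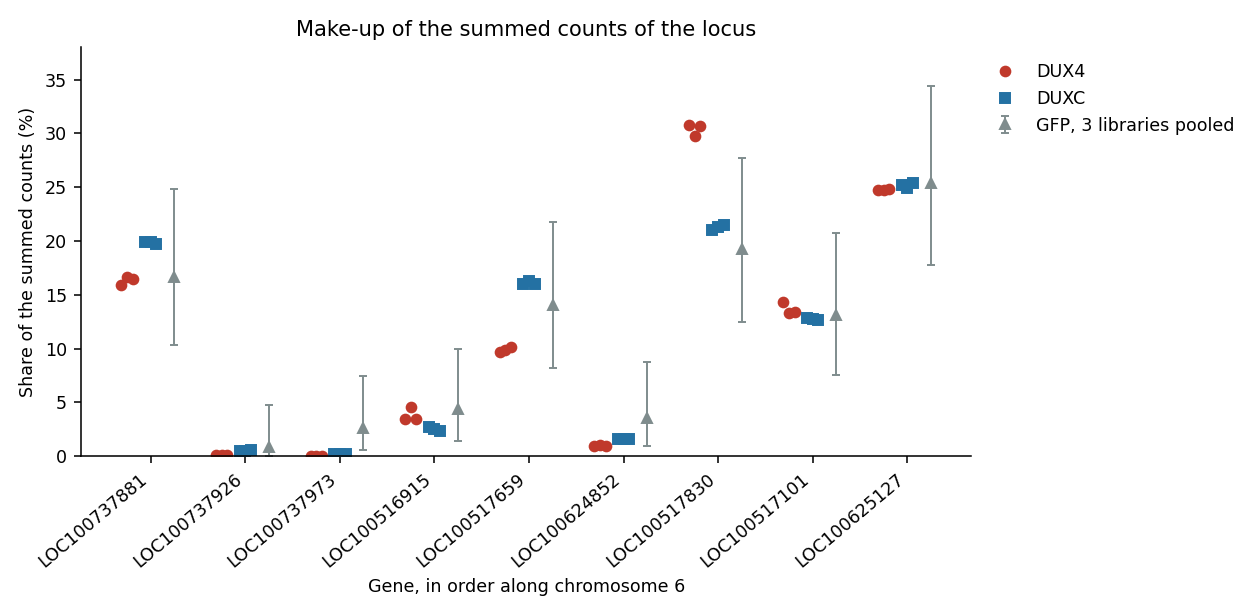
Share of each gene in the summed counts of the 9 genes, in percent, with 1 point per DUX4 and DUXC library; the GFP point pools the 114 counts of 3 libraries, with an exact 95% binomial interval. LOC100517830 stands higher in the DUX4 libraries (29.8 to 30.8%) than in the DUXC libraries (21.0 to 21.5%), while LOC100517659 and LOC100737881 stand lower.

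In the GFP libraries the 114 counts were spread over all 9 genes. LOC100625127 held 29 of them, 25.4% (17.7 to 34.4%), LOC100517830 held 22, 19.3% (12.5 to 27.7%), LOC100737881 held 19, 16.7% (10.3 to 24.8%), LOC100517659 held 16, 14.0% (8.24 to 21.8%) and LOC100517101 held 15, 13.2% (7.56 to 20.8%), with exact 95% binomial intervals that cover counting error only. For these 5 genes the interval holds the mean share with DUXC, and for all but LOC100517830, with a share of 30.4% with DUX4, it holds that with DUX4 too. LOC100516915 had 5 counts, LOC100624852 had 4, LOC100737973 had 3 and LOC100737926 had 1. The intervals of LOC100516915 (1.44 to 9.94%), LOC100624852 (0.964 to 8.74%) and LOC100737926 (0.0222 to 4.79%) hold their mean shares with both factors. The interval of LOC100737973, with 2.63% of the pool (0.546 to 7.50%), lies above its mean shares of 0.0407% with DUX4 and 0.173% with DUXC. All counts of LOC100737973, LOC100516915 and LOC100737926 came from GFP replicate 1, which gave 88 of the 114 counts. Nothing is therefore read from the shares of these genes. The counts are too few to give the make-up of the sum in control cells for single libraries.

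The libraries of a group agreed less well for LOC100516915 than for the other members. Its coefficient of variation was 20.002% with DUX4 and 7.77% with DUXC, the largest of the 9 genes in both groups, and the medians of the 9 genes were 7.79% and 3.36%. For comparison, genes of at least 10 CPM had medians of 3.46% with DUX4 and 2.97% with DUXC, and 95% of them lay below 8.35% and 7.50%. With DUX4, LOC100737926 (12.5%), LOC100737881 (8.87%) and LOC100517659 (8.73%) also lay above 8.35%. LOC100737926 and LOC100737973 were below 10 CPM with DUX4, so this comparison does not cover them there. DUX4 replicate 2 was high for LOC100516915, at 190.1 CPM against 129 and 148 CPM, and DUXC replicate 3 was low, at 727 CPM against 843 and 824 CPM. The smallest variation with DUX4 was that of LOC100517101, 3.23%, and with DUXC that of LOC100625127, 2.09%.

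The genes that flank the run did not share its levels. On the lower side, C6H1orf158 ends 14.6 kb before LOC100737881 and had no count with DUX4, 4 counts with DUXC and none with GFP. AADACL3 and AADACL4, relatives of arylacetamide deacetylase, lie 46.0 and 81.5 kb away and had no count with DUX4, 2 and 1 counts with DUXC and none with GFP. On the upper side LRRC38, an auxiliary subunit gene of potassium channels, starts 37.6 kb after LOC100625127 and had 1 count with DUX4, 3 with DUXC and none with GFP. Among genes of the count table with a RefSeq position, the nearest on either side, 14.6 and 37.6 kb away, thus had at most 4 counts in any group. Annotated genes that are not in the count table were not examined, so where the run of abundant transcripts ends was not measured. The flanking genes are given without a test, as they are the genes just outside the chosen run.

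Farther out, VPS13D, DHRS3, PDPN, PRDM2 and KAZN had counts in all groups. DHRS3, which encodes a retinaldehyde reductase, lies 133 kb below the run and had 10.5, 12.0 and 13.3 CPM with DUX4, 78.1, 76.6 and 73.9 CPM with DUXC and 94.7, 94.4 and 97.7 CPM with GFP. It was lowest in the DUX4 libraries, and no groups overlapped. VPS13D, a lipid transport gene, averaged 74.8 ± 4.44 CPM with DUX4, 69.2 ± 0.822 with DUXC and 112 ± 4.55 with GFP. On the upper side PDPN, which encodes the membrane glycoprotein podoplanin, averaged 14.4 ± 1.48 CPM with DUX4, 43.9 ± 2.17 with DUXC and 23.3 ± 0.820 with GFP, and PRDM2, a zinc finger methyltransferase gene, 25.3 ± 1.503 with DUX4, 75.4 ± 0.759 with DUXC and 27.8 ± 0.741 with GFP (SD, n = 3 each). Both were highest with DUXC, at log2 ratios to GFP of 0.91 and 1.44, and with DUX4 their log2 ratios to GFP were -0.70 and -0.14. KAZN, 405 kb above the run, had means of 0.998 CPM with DUX4, 1.70 with DUXC and 2.42 with GFP, and LOC106510624 had no count in any library.

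**Figure D4:**
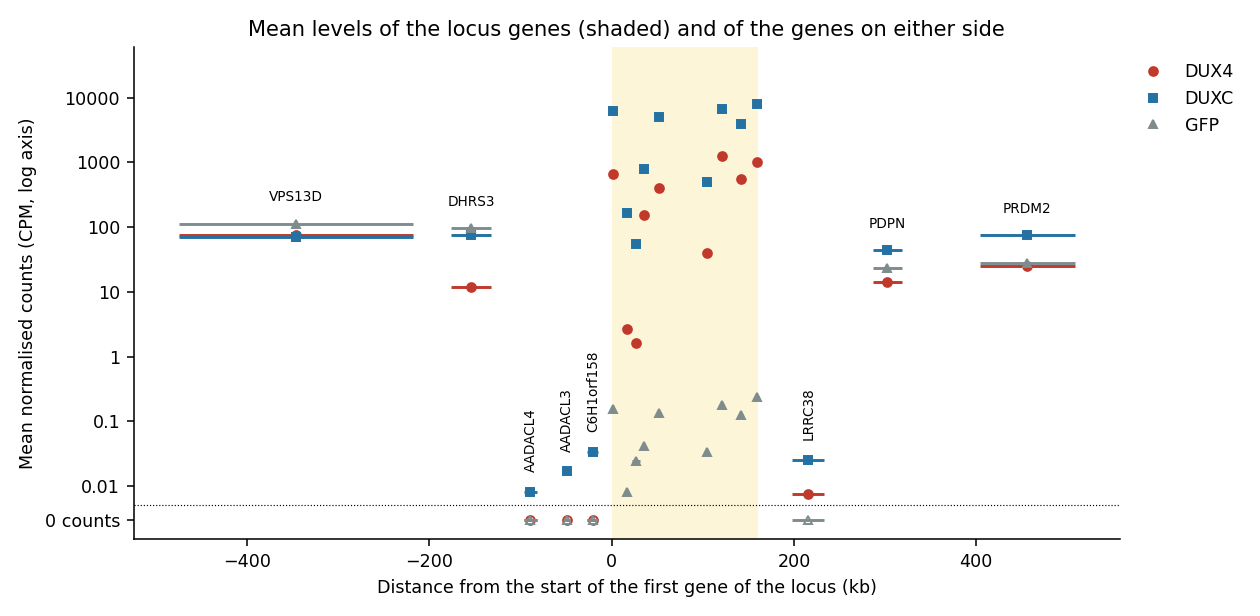
Mean level per group (normalised counts in CPM, log axis) of the 9 genes of the run (shaded) and of genes on either side, against the distance in kb from the start of the first gene; horizontal lines show gene spans and open symbols a group without a count. AADACL4, AADACL3 and C6H1orf158 below the run and LRRC38 above it have at most 4 counts in any group. VPS13D, DHRS3, PDPN and PRDM2, farther out, lie between 11.9 and 112 CPM. KAZN and LOC106510624 are not plotted.

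The 9 genes had been picked as high with both factors, so a large weight among strongly raised genes follows from that choice. With DUX4, 474 genes were called and had a fitted fold change of at least 8, and held 1.26 ± 0.0533% of all counts. The 9 genes held 31.8 ± 0.690% of the counts of these genes (SD, n = 3). With DUXC there were 1419 such genes, with 11.3 ± 0.326% of all counts, and the 9 genes held 29.3 ± 0.220% of their counts. Of the other genes at least 8-fold higher with both factors, 388 in number, 340 were lower with DUX4 than with DUXC, and their median log2 ratio of DUX4 over DUXC was -2.47, with quartiles of -3.91 and -1.06. The median over the 9 genes was -3.22, within these quartiles.

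By Pearson correlation of log2(CPM + 0.1) over the 9 libraries, the named genes most like the summed locus were HYAL4, a hyaluronidase family gene on chromosome 18 (r = 0.998), STIL, a centriole assembly gene on chromosome 6 (r = 0.997), and the Wnt inhibitor gene DKK2 on chromosome 8 (r = 0.996), out of 12246 genes with a symbol of their own. The libraries fall into 3 groups, so these values describe the order of the groups and their spacing on the log scale. HYAL4 had 5.21 ± 0.0468 CPM with DUX4, 9.57 ± 0.348 with DUXC and 0.309 ± 0.114 with GFP. STIL had 36.5 ± 1.31, 48.8 ± 1.57 and 6.95 ± 0.690 CPM, and DKK2 had 16.8 ± 1.10, 24.1 ± 1.35 and 4.95 ± 0.444 CPM, with DUX4, DUXC and GFP in that order (SD, n = 3 each). Their ranges were far narrower than that of the locus.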

How the data were processed

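The authors deposited raw read counts per gene for 9 libraries made with a stranded kit for messenger RNA, per the labels' protocols. Per the submitters' processing notes, CASAVA 1.9, Trim Galore, featureCounts and build Sscrofa11.1 were used, and the file headers name Subread. Other versions, the strand setting and the treatment of reads that fit several genes are not given in the sources used. RefSeq positions on that assembly were matched by symbol for all 9 genes. No sequence of the locus was used here.

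Counts were scaled with TMM factors from genes that passed filterByExpr (15956 of 27339; factors 0.979 to 0.987 with DUX4, 1.05 to 1.06 with DUXC, 0.960 to 0.974 with GFP). A single model with a term per group was fitted to the 9 libraries with the robust quasi-likelihood test of edgeR 4.0.16 under R 4.3.3, and p-values were adjusted by Benjamini-Hochberg over all tested genes, with a threshold of 0.05. The fit was tested on simulated data. Ratios are of mean CPM, and a group without counts was set at 3 counts. Pairs of libraries of a group differed beyond sampling noise, with a chi-square of 2.71 to 19.3 per degree of freedom. DESeq2 1.42.0 served as an alternative. Depth limits precision most in the GFP group, where 3 counts correspond to 0.0253 CPM, and also where genes had few counts in the other groups, such as LOC100737926 and LOC100737973 with DUX4.

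The 9 genes, the marker lists and the comparisons were chosen with earlier results of these data known. Named besides the 9 genes are the 5 nearest genes of the table on each side, the genes inside the run, the 3 most alike genes with a symbol and at least 1 CPM, and the markers at the highest and lowest levels. A search for relatives of the genes elsewhere and for a promoter motif had been planned and was not run, because the reference tables at hand give neither descriptions nor sequences.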

Additional observations from a re-analysis of the deposited data

How the results depend on the processing

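For the sum over the 9 genes and the counts of called genes, all 78 alternative values kept their direction and stayed within the spread between libraries or within 1.5 times of the count. For the sum against GFP that spread was wide, 1.91 log2 units with either factor, through the uneven GFP counts. Ratios of this size could hardly have changed sign. For the sum with DUX4 against DUXC the spread was 0.108 log2 units. The log2 ratio of the sum was 12.11 for DUX4 against GFP, 15.09 for DUXC against GFP and -2.99 for DUX4 against DUXC with DESeq2's size factors, and 12.11, 15.15 and -3.04 with library size alone. Library size alone moved the median log2 fold change of all tested genes to 0.09 for DUXC against GFP and to -0.11 for DUX4 against DUXC, against -0.03 and -0.01 with TMM. Leaving out 1 library at a time gave log2 ratios of the sum of 11.58 to 13.58, 14.51 to 16.51 and -2.97 to -2.88. The extremes against GFP came without GFP replicates 3 and 1.

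For single genes 339 values moved by less than the spread between libraries and 12 by more, and none changed sign. Of these 12, 8 concern LOC100737926, which has 1 count with GFP. For the spread, libraries without a count were set at 1 count. The spread of this gene against GFP was therefore small, 0.183 log2 units with DUX4 and 0.0665 with DUXC. For the other genes it was 0.876 to 2.02, so the same move could count as more than the spread for LOC100737926 alone. The called genes numbered 10340, 13165 and 13150, and 9707, 12642 and 12660 with DESeq2. Leaving the 9 genes out of the totals and the fit, an alternative chosen after seeing the data, gave 10337, 13197 and 13173. Residuals of same-numbered libraries correlated at -0.0567 to 0.0749, which gives no sign of pairing, and the fit with the replicate number as a replicate block called 10272, 13125 and 13092 genes. The alternatives planned for relatives of the genes elsewhere were not run.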

Other observations

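The few counts of the locus in control cells were unevenly spread over the GFP libraries, with 88, 20 and 6 in replicates 1, 2 and 3. Per 1000000 units of the mean summed level in the DUXC libraries, they correspond to 68.7, 16.4 and 4.91. The other 13 genes that were at least 1024-fold higher with DUXC and at 1000 CPM or more there, chosen after seeing the data, had 67, 31 and 24 counts in the same libraries, or 51.3, 24.9 and 19.3 per 1000000 of their level with DUXC, and 10 of the 13 had most counts in GFP replicate 1. These counts were unevenly divided between the 13 genes. RND1 had 16, 15 and 13 of them, nearly even over the libraries, and LOC100623167 had 16, 2 and 2. RND1 thus makes the fall from GFP replicate 1 to replicate 3 in the summed counts less steep. Where these counts come from was not tested.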
